A study of Mus musculus with 18 samples.

Results

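The Ras GTPases and the proteins that switch them on and off were followed through 18 RNA-seq libraries of mouse embryonic fibroblasts (MEFs) as 9 named genes, out of 55401 gene identifiers in the count table. All 9 were found by their Ensembl identifier, with Hras listed under its older symbol Hras1 in the annotation used. They comprise 5 GTPases (Hras, Nras, Rras, Rras2 and Mras), 2 exchange factors (Rasgrp1 and Rasgrp3) and 2 GTPase-activating proteins (Rasa1 and Nf1), so the set is wider than GTPases and exchange factors alone. MEFs are primary fibroblasts grown from minced mouse embryos, here 13.5 days old and without head and viscera. The libraries fall into 6 groups of 3 in 2 genetic series. In the S6K1 series, wild-type (WT) cells carried an empty retroviral vector (EV) or a vector that drives constitutively active RAS, an HRAS mutant, and S6K1 knockout (KO) cells carried RAS. In the S6K1/S6K2 series, the same pair of WT groups was set beside cells with RAS that lack both kinases (DKO). The S6 kinases phosphorylate ribosomal protein S6 and act downstream of mTORC1. KO or DKO cells with EV were not analysed here. KO and WT embryos of the S6K1 series were littermates, whereas the WT embryos for the DKO line came from mothers that were themselves WT, earlier in the breeding. The knockouts are constitutive, and no time after transduction is given in the labels, which limits each group as a model. The methods of the study name pBABEpuro for EV and MSCV-neo for RAS, yet describe puromycin selection of the MEFs. Whether the EV and RAS vectors had different backbones is therefore not settled.

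Ras proteins are membrane-bound switches that are active when bound to GTP and inactive when bound to GDP. Exchange factors such as the RasGRP and Sos proteins load them with GTP, and GTPase-activating proteins (GAPs) such as p120 RasGAP, the product of Rasa1, and neurofibromin, the product of Nf1, speed up GTP hydrolysis. Active Ras signals through the MEK and ERK kinases, through PI3 kinase and through RalGDS-type exchange factors. In primary fibroblasts, sustained signalling by mutant RAS is a classical trigger of senescence.

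The 5 GTPases share the loop that binds the phosphates of the nucleotide, and the codon in that loop at which activating changes of RAS are best known is codon 12 of Hras. It lies at codon 38 in Rras, 23 in Rras2 and 22 in Mras. The coding sequences around it are shown for these 4 genes because the introduced RAS is a mutant HRAS, of the same family. Each run of 30 bases is taken 5′ to 3′ from the protein-coding transcripts of GENCODE vM1, with the codon aligned with codon 12 of Hras in capitals.
Hras: gtggtgggcgctGGAggcgtgggaaagagt
Rras: gtcgtaggcggcGGCggcgtgggcaagagc
Rras2: gtggtcggcggtGGCggcgtgggcaagtcg
Mras: gtggtgggagatGGTggtgtgggcaagagt
Against Hras, the windows of Rras and Rras2 differed at 7 of 30 bases and that of Mras at 5. Over the aligned coding sequence Hras and Nras were 75.1% identical, Rras and Rras2 68.2%, and Hras and Mras 63.3%. At the read length of 50 bases the genes were separable. Of the 50-base windows in the annotated transcripts of Hras, Rras, Rras2, Mras, Rasgrp1, Rasgrp3, Rasa1 and Nf1, 0 occurred in a protein-coding transcript of another gene, and 29 of 4765 (0.609%) did for Nras. Pseudogenes were not examined. The counts cannot, however, tell reads of the endogenous Hras gene from any reads of the introduced HRAS that were assigned to it.

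Rras2 and Hras are on chromosome 7 of GRCm38.p6, from 114046782 to 114117781 and from 141189934 to 141194019, and Rras is on the same chromosome from 45017942 to 45021646. Nras is on chromosome 3 from 103058285 to 103067914 and Mras on chromosome 9 from 99385420 to 99437700. Rasgrp1 is on chromosome 2 from 117279983 to 117342877 and Rasgrp3 on chromosome 17 from 75435870 to 75529054. Rasa1 is on chromosome 13 from 85214699 to 85289486. Nf1, from 79339590 to 79581609 on chromosome 11, lies 6.92 Mb from Rps6kb1, the targeted S6K1 gene.

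Total counts were between 8319445 and 14402442 per library. Levels are given as CPM, a gene's count relative to the library total after TMM scaling inside a series, and a count of 0 allows up to 0.361 CPM in the shallowest library. As a check of the labels, Rps6kb1 was between 61.6 and 102.5 CPM in the WT libraries of the S6K1 series and between 23.6 and 37.0 CPM in KO, and between 75.5 and 91.1 CPM in WT and 34.5 and 39.7 CPM in DKO libraries of the S6K1/S6K2 series. Rps6kb2, which encodes S6K2, was between 24.1 and 30.6 CPM in WT and 2.68 and 3.04 CPM in DKO libraries. Fibroblast markers (12 genes, summed) were between 45889 and 60067 CPM in EV libraries and between 24687 and 38136 CPM in RAS libraries of any genotype, so the labelled cell type was matched in all 18 libraries while its markers were lower with RAS. In bulk RNA, fewer cells of a type and less RNA per cell cannot be told apart. Macrophage markers (12 genes) were also present and uneven, from 71.1 to 3392 CPM in sum. Their values are set beside the 2 exchange factors below.

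Per length of transcript, Rras and Rras2 were the most abundant of the 9 in every group, and Rasgrp1 the least. In WT EV cells of the S6K1 series Rras stood at 57.2 ± 10.5 CPM per kilobase of exon (mean ± SD, n = 3) and Rras2 at 51.4 ± 14.9, which did not differ beyond their spread. Next came Rasa1 at 23.3 ± 3.30, Nras at 23.2 ± 2.40 and Hras at 16.6 ± 2.93, of which the first pair overlapped. Mras was at 10.8 ± 0.820, Nf1 at 5.01 ± 1.40, Rasgrp3 at 2.65 ± 0.298 and Rasgrp1 at 0.233 ± 0.0665 CPM per kilobase, each below the one before by more than their spread. The same order held in WT EV cells of the other series except that Rras, at 53.8 ± 2.92, was above Rras2, at 20.5 ± 2.77, beyond the spread, and Nras, at 19.0 ± 1.63, and Rasa1, at 18.4 ± 2.64, changed places within it. There Rras2, Nras, Rasa1 and Hras lay within one another's spread or next to it. With RAS, Rras2 took the first place in the S6K1 series at 104.7 ± 15.5 CPM per kilobase, above Rras at 73.9 ± 6.38, and Hras at 31.5 ± 0.628 stood above Nras at 27.8 ± 2.47. The order was different in WT RAS cells of the S6K1/S6K2 series, with Rras at 85.9 ± 13.8 and Rras2 at 65.6 ± 10.7, while Hras at 26.5 ± 1.81 and Nras at 26.9 ± 0.574 did not differ beyond their spread.

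To ask how RAS altered its own family, WT RAS was compared with WT EV within each series. Rras2, Hras and Rasa1 rose and Mras fell in both series, and Nras and Rras also rose in the S6K1/S6K2 series. By edgeR's quasi-likelihood test with Benjamini-Hochberg adjustment over all genes tested and a threshold of 0.05, 4 of 9 members were called in the S6K1 series, 3 higher and 1 lower, where 13.2% of the 14036 tested genes were called (7.15% higher and 6.09% lower). In the S6K1/S6K2 series 6 of 8 tested members were called, 5 higher and 1 lower, against 26.3% of 13881 genes (13.5% higher and 12.7% lower). Rasgrp1 was too low to be tested there. The groups did not overlap for 5 of 9 members in the S6K1 series and 6 of 9 in the S6K1/S6K2 series, where the shares over all tested genes were 30.9% and 42.5%. The median log2 fold change of the tested members was 0.26 and 0.59, and that of all tested genes 0.0018 and −0.024.

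**Figure D1:**
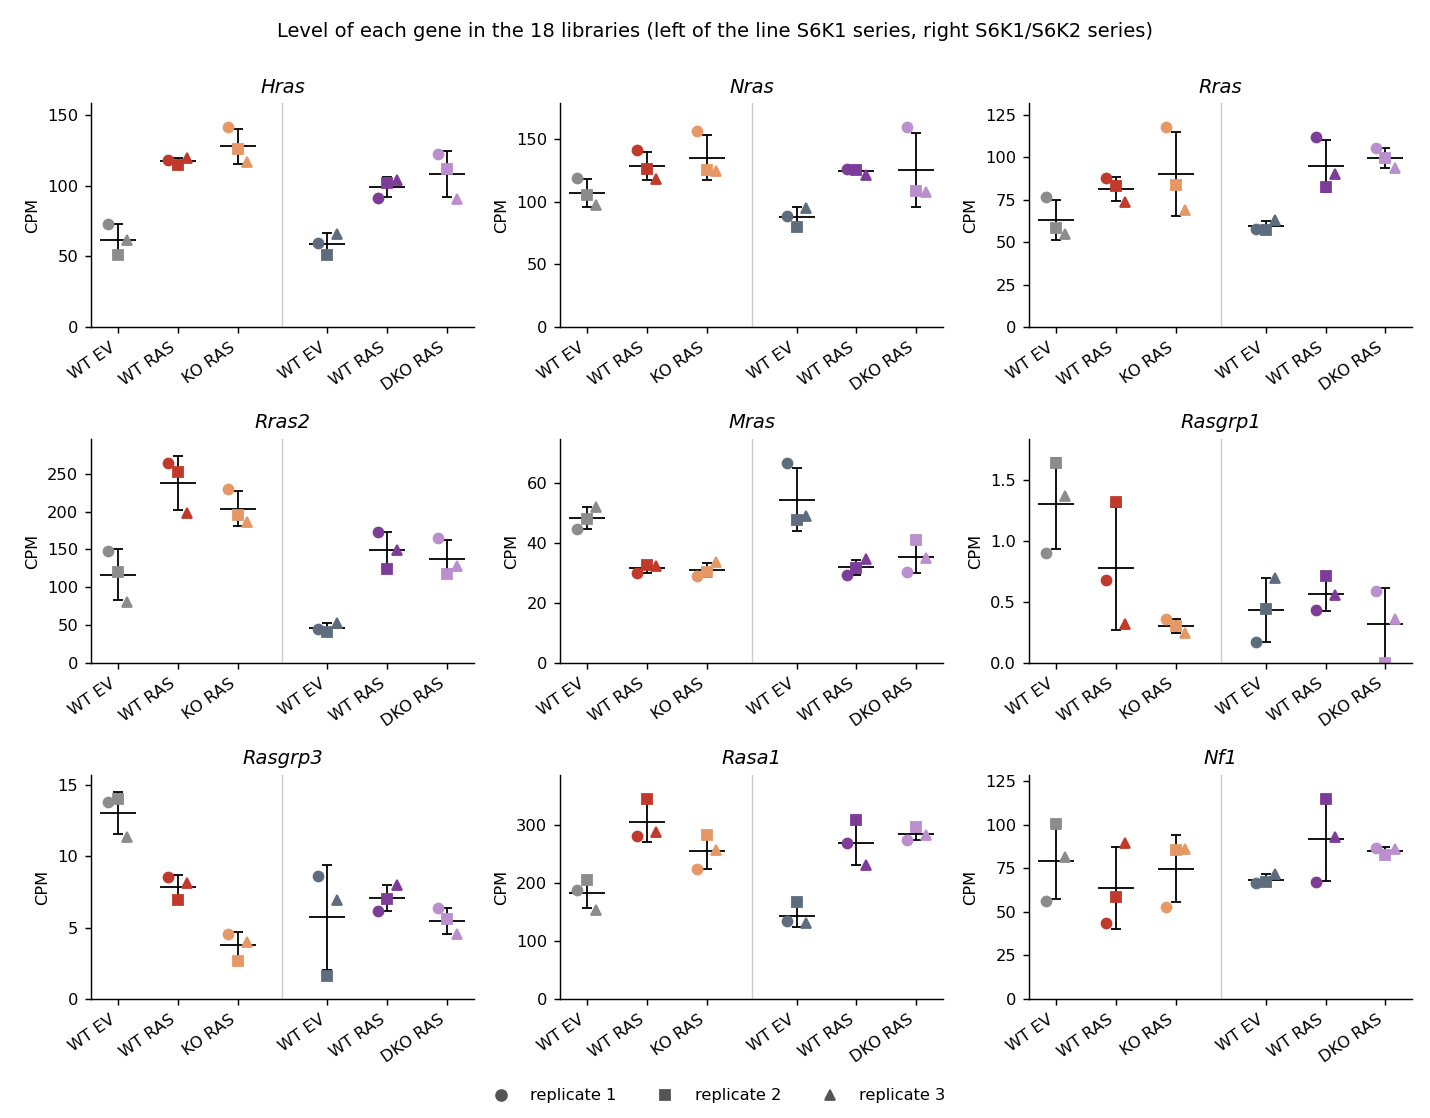
Level of each of the 9 genes in CPM (vertical axes from 0, 1 scale per gene) in the 3 libraries of each group. Marker shapes are replicate numbers, horizontal lines are means and bars are SDs. Hras, Rras2 and Rasa1 are higher, and Mras is lower, in every WT RAS library than in any WT EV library of its series, and in Rasgrp3 the KO RAS libraries, at 2.68 to 4.55 CPM, lie below the WT RAS libraries, at 6.93 to 8.54 CPM.

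Rras2 encodes TC21, a GTPase of the R-Ras branch that can activate PI3 kinase and transform cells. In the S6K1 series it had 148.4, 120.6 and 81.1 CPM in the WT EV libraries and 263.9, 252.2 and 197.7 CPM with RAS. The log2 fold change was 1.03 (SE 0.215, edgeR adjusted p = 0.0130). Its 3 EV libraries in the S6K1/S6K2 series had 45.4, 41.1 and 53.5 CPM and the RAS libraries 173.0, 124.6 and 149.6 CPM, so it rose by 1.68 on the log2 scale (SE 0.178, edgeR adjusted p = 0.000333). Every RAS library was above every EV library, and the EV level in the S6K1/S6K2 series was the lower of the 2. The change differed between the series by 0.64 on the log2 scale (95% interval 0.01 to 1.26), which had an unadjusted p of 0.0465 and an edgeR adjusted p of 0.391 in a fit of 18 libraries. Without WT RAS replicate 2 the call in the S6K1 series was lost, with an adjusted p of 0.0532 in edgeR, and without any other single library it remained.

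Hras encodes the Ras protein whose mutant form was introduced. Its level was 72.7, 50.8 and 61.9 CPM in the EV libraries of the S6K1 series and 118.4, 114.9 and 119.3 CPM in the RAS libraries. The 3 RAS libraries were close together and all above the EV libraries (log2 fold change 0.93, SE 0.142, edgeR adjusted p = 0.0029). The S6K1/S6K2 series had 59.6, 51.0 and 66.1 CPM with EV and 91.3, 102.1 and 103.8 CPM with RAS (log2 fold change 0.75, SE 0.146, edgeR adjusted p = 0.00568). The rises were 1.90-fold and 1.68-fold, and they are rises in all reads assigned to the gene, from whichever copy.

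Rasa1 encodes p120 RasGAP, which binds activated receptors and inactivates Ras. It rose from 187.9, 205.1 and 154.2 CPM to 281.2, 345.2 and 289.1 CPM in the S6K1 series, by 0.74 on the log2 scale (SE 0.148, edgeR adjusted p = 0.0104). The S6K1/S6K2 series had a rise from 133.9, 167.7 and 130.3 CPM to 269.7, 308.2 and 231.0 CPM (0.90, SE 0.147, edgeR adjusted p = 0.00239). Both times the lowest RAS library was above the highest EV library.

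Mras encodes M-Ras, which forms a complex with Shoc2 and a phosphatase. It was the 1 GTPase of the 5 that fell. EV libraries of the S6K1 series had 44.8, 47.9 and 52.1 CPM and RAS libraries 29.9, 32.6 and 32.3 CPM, which is a log2 difference of −0.61 (SE 0.113, edgeR adjusted p = 0.00752). EV libraries of the S6K1/S6K2 series had 66.6, 47.6 and 49.1 CPM and the RAS libraries 29.5, 31.6 and 34.7 CPM (−0.77, SE 0.165, edgeR adjusted p = 0.00876). Replicate 1 of that EV group was the highest, and the fall was also called without it.

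Nras, the Ras gene most often mutated in melanoma, and Rras, whose product acts on integrin adhesion, had smaller differences. Nras was at 119.0, 105.5 and 97.0 CPM with EV and at 140.9, 126.2 and 118.3 CPM with RAS in the S6K1 series, where the groups overlapped and the log2 fold change was 0.26 (95% interval −0.041 to 0.56, edgeR adjusted p = 0.255). It was at 88.9, 79.8 and 94.8 CPM with EV and at 126.3, 125.3 and 121.3 CPM with RAS in the S6K1/S6K2 series, with no overlap (0.50, SE 0.159, edgeR adjusted p = 0.0434). That call was lost without any 1 of 5 of the 6 libraries compared (edgeR adjusted p up to 0.144). Rras had 76.4, 58.2 and 54.9 CPM with EV and 87.6, 83.2 and 73.8 CPM with RAS in the S6K1 series (0.37, 95% interval −0.090 to 0.83, edgeR adjusted p = 0.293). Across the S6K1/S6K2 series it rose from 57.6, 57.3 and 63.0 CPM to 111.7, 82.4 and 90.2 CPM (0.68, SE 0.131, edgeR adjusted p = 0.00556). For neither gene did the change differ between the series past the threshold (adjusted p = 0.651 for Nras and 0.617 for Rras in edgeR). With the replicate number as a block, which takes each WT line as its own control, Nras (0.26, adjusted p = 0.0173), Rras (0.38, adjusted p = 0.0164) and Rasgrp3 were called in the S6K1 series as well in edgeR, 7 of 9 members, where 36.2% of all tested genes were called. The block left 6 members called in the S6K1/S6K2 series, against 28.7% of all genes. That fit also blocked the DKO libraries by number, although DKO and WT embryos were not littermates. DESeq2 called 5 members in the S6K1 series and 6 in the other, against 15% and 25.3% of the genes it tested.

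**Figure D2:**
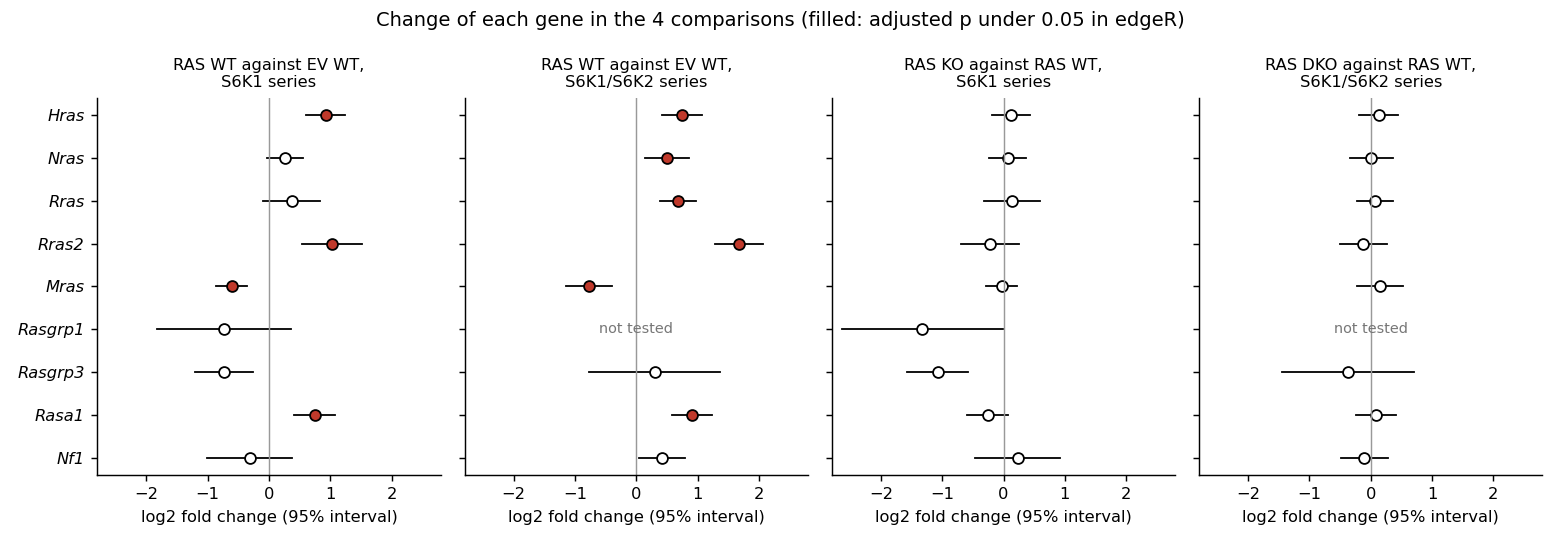
Log2 fold change of each gene (horizontal axes) with its 95% interval in the 4 comparisons, from edgeR. Filled circles have an adjusted p under 0.05: 4 and 6 genes in the RAS comparisons and 0 in the comparisons of KO or DKO with WT.

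Rasgrp3 and Rasgrp1 encode exchange factors that are recruited by diacylglycerol and calcium and are best known from B cells, endothelium and T cells. Rasgrp3 had 13.8, 14.0 and 11.4 CPM in the EV libraries of the S6K1 series and 8.54, 6.93 and 8.11 CPM with RAS. The groups did not overlap, and the log2 fold change of −0.73 (SE 0.212) did not pass the threshold in edgeR (adjusted p = 0.0512), while it passed in DESeq2 (adjusted p = 0.0179) and with the block (edgeR adjusted p = 0.00763). The EV libraries of the S6K1/S6K2 series had 8.64, 1.59 and 6.91 CPM and the RAS libraries 6.16, 7.03 and 7.97 CPM. Replicate 2 of that EV group was far below the other two with 18 counts, and the log2 fold change of 0.30 (95% interval −0.77 to 1.37, edgeR adjusted p = 0.668) became −0.135 without it. The difference between the series in the RAS effect was 1.03 (95% interval −0.13 to 2.19, edgeR adjusted p = 0.441).

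Rasgrp1 was near the limit of detection. Its counts were 13, 22 and 15 with EV, 8, 17 and 4 with RAS and 4, 4 and 3 in KO in the S6K1 series, and between 0 and 8 in the libraries of the S6K1/S6K2 series. The log2 fold change with RAS in the S6K1 series was −0.73 (95% interval −1.83 to 0.36, edgeR adjusted p = 0.381). With so few counts the interval is wide, and Rasgrp1 was not called in any comparison in edgeR.

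Nf1 encodes neurofibromin, the Ras GAP lost in neurofibromatosis. It had 56.2, 100.3 and 81.4 CPM with EV and 43.3, 58.6 and 89.4 CPM with RAS in WT cells, S6K1 series (log2 fold change −0.31, 95% interval −1.01 to 0.38, edgeR adjusted p = 0.568). Levels in the S6K1/S6K2 series were 66.3, 67.0 and 71.9 CPM with EV and 67.2, 114.7 and 92.7 CPM with RAS (0.42, 95% interval 0.04 to 0.80, edgeR adjusted p = 0.0945). Without WT RAS replicate 1 it was called in that series (0.60, adjusted p = 0.0122 in edgeR). Replicate 1 was the lowest library of every group but DKO, and the groups overlapped in both RAS comparisons. Nf1 is long (15.8 kb of exon), and the level of long genes varied between libraries. The median log2 deviation from the series mean over 490 genes of at least 10000 exon bases, minus that over 1131 genes of at most 2000, in the S6K1 series was −0.257, 0.654 and 0.307 for the EV libraries. It was −0.654, −0.140 and 0.254 for the WT libraries with RAS, and for KO libraries −0.654, 0.293 and 0.224. Nf1 was lowest in the library with the lowest value and highest in the library with the highest value of each of these groups except KO, where replicates 2 and 3 were nearly equal in both. For the S6K1/S6K2 series the values were −0.347, −0.118 and 0.138 with EV, −0.201, 0.464 and 0.152 for WT with RAS and between −0.0958 and 0.0467 in DKO. The part of this length difference in the Nf1 values was not tested.

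To ask whether loss of the S6 kinases altered the family under RAS, KO RAS and DKO RAS were compared with WT RAS. No member was called in either comparison in edgeR, where 0.00712% and 0.0216% of all tested genes were called. In KO, the targeted gene Rps6kb1 was itself not called in that fit (log2 fold change −1.17, edgeR adjusted p = 0.234). It was called with the block (edgeR adjusted p = 0.000101) and in DESeq2 (adjusted p = 2e-06). The lack of calls in KO in the main fit therefore does not show a lack of change. At an unadjusted p under 0.05 there were 2 members in KO (Rasgrp1 and Rasgrp3) against 6.86% of all genes, and 0 in DKO against 1.29%. DESeq2 called 1 member in KO (Rasgrp3) and 0 in DKO, where it called 0.672% and 0.0367% of genes, and edgeR with littermates as a block called 1 member in KO (Rasgrp3), against 4.15% of genes. The groups did not overlap for 1 of 9 members in KO (Rasgrp3; 8.02% of all genes) and for 0 in DKO (6.07%).

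Of the GTPases, no difference was shown. In KO libraries Hras had 141.2, 125.7 and 116.6 CPM (log2 fold change 0.12, 95% interval −0.19 to 0.44), and in DKO libraries 122.4, 112.1 and 90.3 CPM (0.13, −0.19 to 0.45). Rras2 had 230.4, 195.3 and 186.0 CPM in KO (−0.22, −0.70 to 0.26) and 164.9, 117.3 and 128.6 CPM in DKO (−0.12, −0.51 to 0.26). Mras had 28.9, 30.3 and 33.6 CPM in KO (−0.030, −0.29 to 0.23) and 30.3, 40.9 and 35.01 CPM in DKO (0.15, −0.22 to 0.52). For these 3 genes the KO and DKO libraries overlapped those of WT RAS.

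Nras and Rras overlapped between WT and KO or DKO. Nras was at 155.9, 125.1 and 124.2 CPM in KO (log2 fold change 0.072, 95% interval −0.23 to 0.37) and at 159.2, 108.7 and 107.4 CPM in DKO (0.0090, −0.35 to 0.36). Rras was at 117.6, 83.6 and 69.1 CPM in KO (0.14, −0.31 to 0.60) and at 105.6, 99.7 and 93.9 CPM in DKO (0.074, −0.22 to 0.36). Replicate 1 was the highest library each time. Of the GAPs, Rasa1 had 223.5, 282.9 and 258.0 CPM in KO (−0.26, −0.59 to 0.072) and 275.2, 297.2 and 283.9 CPM in DKO (0.082, −0.24 to 0.41). Nf1 had 52.5, 85.5 and 86.2 CPM in KO (0.23, −0.47 to 0.92) and 86.5, 82.8 and 86.0 CPM in DKO (−0.10, −0.48 to 0.27), so the gene that shares chromosome 11 with the targeted locus was not shown to change.

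Rasgrp3 was the 1 member whose KO and WT libraries did not overlap. The KO libraries had 4.55, 2.68 and 4.0 CPM, from 50, 35 and 48 counts, and all lay below the WT RAS libraries of 6.93 to 8.54 CPM. The log2 fold change was −1.07 (95% interval −1.57 to −0.57), with an unadjusted p of 0.000867 and an adjusted p of 0.587 in edgeR. It was called with the block (−1.08, edgeR adjusted p = 0.0116, which is the pairing of littermates) and in DESeq2 (−1.09, adjusted p = 0.0141). Leaving out 1 library at a time gave values from −1.25 to −0.88, with edgeR adjusted p-values from 0.0994 to 1.00. In DKO the libraries had 6.34, 5.58 and 4.51 CPM (−0.37, 95% interval −1.44 to 0.71, edgeR adjusted p = 1.00), and the loss effect differed between the series by 0.73 (95% interval −0.45 to 1.92, edgeR adjusted p = 1.00). Rasgrp1 differed by −1.32 in KO (95% interval −2.64 to −0.0040, edgeR adjusted p = 0.709) on 29 counts in WT RAS and 11 in KO.

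Macrophage markers, in sum, were lower in each KO or DKO library than in the same-numbered WT RAS library, although the groups overlapped. Their summed level was 3392, 3122 and 682.3 CPM in the WT RAS libraries of the S6K1 series and 784.3, 639.1 and 231.2 CPM in the KO libraries. In the S6K1/S6K2 series it was 940.7, 170.9 and 242.3 CPM for WT RAS and 218.8, 71.1 and 93.5 CPM for DKO. All 12 markers were above 3 counts in at least 1 library of every group. Lyz2 was the largest single marker in every WT RAS, KO and DKO library. Cd68 was at 24.1, 28.8 and 29.9 CPM in DKO, against 67.2, 33.8 and 26.4 CPM in WT RAS of that series. Each of the other markers was lower in every DKO library than in the same-numbered WT RAS library. EV libraries had 2863, 2210 and 580.6 CPM in the S6K1 series and 1253, 143.6 and 187.6 CPM in the other, in which the library with the lowest sum was also that with the lowest Rasgrp3. Within WT RAS of the S6K1 series, Rasgrp3 was at 8.11 CPM in the library with the lowest sum and at 6.93 CPM in the library with 3122 CPM. The part of macrophage RNA in the Rasgrp3 values was not tested. Markers of T and B cells (8 genes) summed to at most 2.56 CPM in any library, with 4 to 6 of the 8 at 0 in every library of a group. Endothelial markers (8 genes) summed to between 13.7 and 36.3 CPM. The sums were 13.7 to 19.9 CPM with EV and 22.5 to 29.1 CPM with RAS in WT cells of the S6K1 series, and 16.5 to 26.6 against 29.6 to 33.2 CPM in the other. The markers did not move as one in the S6K1 series, where Egfl7 was at 4.55 to 9.16 CPM with EV and 11.7 to 16.9 CPM with RAS, Kdr overlapped, and Emcn was at 0.820 to 1.53 CPM with EV and 0.0854 to 0.562 CPM with RAS.

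**Figure D3:**
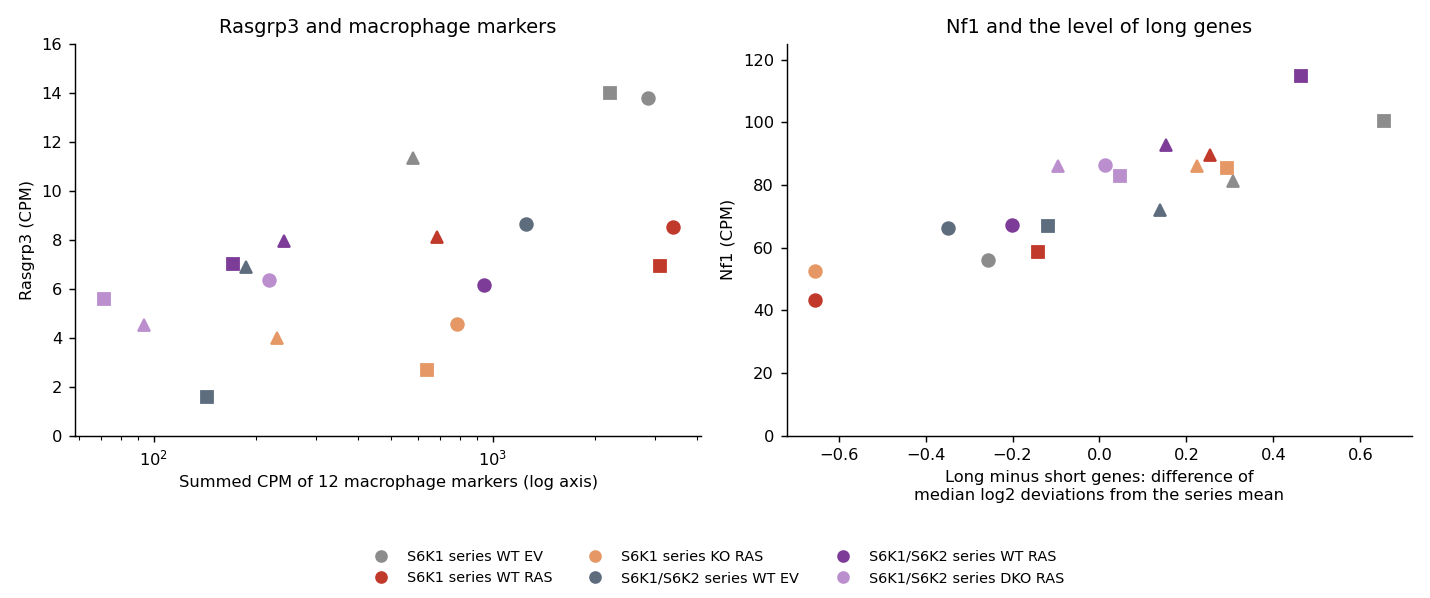
Left, Rasgrp3 (CPM) against the summed CPM of 12 macrophage markers (log axis) in 18 libraries. Right, Nf1 (CPM) against the difference between long and short genes in median log2 deviation from the series mean. Circles, squares and triangles are replicates 1, 2 and 3. The KO RAS libraries have the lowest Rasgrp3 of the S6K1 series at sums of 231.2 to 784.3 CPM, and Nf1 spans 43.3 to 114.7 CPM over length differences from −0.654 to 0.654.

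Rasgrp1 was left out of the comparison of patterns for its low counts. Of the other 8 members, 5 moved together, Mras moved opposite to them, and Rasgrp3 and Nf1 followed neither. Over the 18 libraries, each series centred on its own mean, Pearson's r of log2 CPM was 0.90 between Rras and Rras2, 0.89 between Nras and Rras2, and 0.86 between Hras and Rras2. Mras had r of −0.91 with Rras2 and −0.86 with Hras. Rasgrp3 and Nf1 had r between −0.26 and 0.32 with the others of the 8. These are descriptions over libraries that share 6 EV and 12 RAS cultures, so the split by vector enters every one of them.

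Among 8137 genes with at least 100 counts in every library, those whose pattern was most like each of these 8 members are named as a description over 18 libraries. Fez1 (r = 0.98), the hyaluronan receptor gene Cd44 (0.98) and 1300014I06Rik (0.97) were nearest to Rras2. Nearest to Hras were the lysosomal enzyme genes Ctsl (0.97) and Ggh (0.96) with Nucb2 (0.97), and nearest to Nras were Wdr1, Gtpbp4 and Thumpd3 (0.96 to 0.97). Rras was nearest to Aldoa, Fhl3 and Actb (0.97 each), genes of glycolysis and the actin cytoskeleton. Mras was nearest to Gaa, Ski and Mtss1l (0.96 each), Rasa1 to Enc1, Kif2a and Itgb3 (0.94 to 0.95) and Nf1 to A630007B06Rik, Sec24a and Chd8 (0.96 to 0.97). For Rasgrp3 the nearest genes, D16Ertd472e, Slc31a1 and Wbscr17, reached 0.74 to 0.80.

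As members moved together, the 250 bases before the annotated start of Hras, Rras2 and Mras are shown, 2 that rose and 1 that fell, from RefSeq (GRCm38.p6). All 3 are on the minus strand and are written 5′ to 3′ in the direction of transcription. They lie at chr7:141194005-141194254 for Hras, chr7:114117782-114118031 for Rras2 and chr9:99436713-99436962 for Mras. The Mras window is inside the annotated gene, before the start of a shorter transcript. That of Hras also runs into its annotated gene, which reaches to 141194019. Capitals mark GGGCGG, the GC box, on either strand.
Hras: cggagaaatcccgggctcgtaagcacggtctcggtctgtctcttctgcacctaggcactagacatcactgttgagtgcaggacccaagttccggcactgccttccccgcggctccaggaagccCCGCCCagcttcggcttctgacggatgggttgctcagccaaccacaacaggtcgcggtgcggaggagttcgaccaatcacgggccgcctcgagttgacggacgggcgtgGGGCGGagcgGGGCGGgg
Rras2: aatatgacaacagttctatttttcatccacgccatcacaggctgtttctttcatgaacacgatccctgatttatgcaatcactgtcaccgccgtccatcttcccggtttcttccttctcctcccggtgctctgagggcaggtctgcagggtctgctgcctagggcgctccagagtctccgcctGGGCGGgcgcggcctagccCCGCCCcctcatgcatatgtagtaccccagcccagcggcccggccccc
Mras: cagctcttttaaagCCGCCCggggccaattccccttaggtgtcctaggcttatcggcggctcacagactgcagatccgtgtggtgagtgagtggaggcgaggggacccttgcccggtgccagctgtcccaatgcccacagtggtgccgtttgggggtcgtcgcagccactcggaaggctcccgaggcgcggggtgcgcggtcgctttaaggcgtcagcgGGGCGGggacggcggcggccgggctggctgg
The GC box was present in 3 copies before Hras and in 2 copies each before Rras2 and Mras, so it did not separate the genes that rose from the one that fell. Of the 12 annotated starts of the 9 genes, 6 had at least 1 GC box, those of Hras, Nras, Rras2, Mras, Rasa1 and Rasgrp1, where 32.7% of 32851 mouse promoters of the same length had one. The AP-1 motif TGANTCA was before 0 of the 12 starts and before 6.75% of all promoters. The ETS core CCGGAA, on either strand, was before 4 of them, in Hras, Nf1, Rasa1 and Rasgrp3, and before 12.03% of all promoters. TGANTCA was also searched on both strands, the GC box and the ETS core can share up to 2 letters at their ends, and a match is a description of letters only.

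The other genes of the pathway were followed as lists of 98 genes in all. With RAS, 23 of 91 tested genes of the lists were called in the S6K1 series (18 higher, 5 lower) and 36 of 87 in the S6K1/S6K2 series (30 higher, 6 lower). These are 25.3% and 41.4%, where 13.2% and 26.3% of all genes were called. With the block the count in the S6K1 series was 49 of 91 (53.8%, against 36.2% of all genes), and it was 36 again in the other. ERK output genes, the feedback and early targets of the pathway, made up the largest share of these calls. Of 15, 11 rose in the S6K1 series and 12 in the S6K1/S6K2 series, and 0 fell, with medians of 1.48 and 2.21 on the log2 scale. Dusp6, an ERK phosphatase, rose by 2.13 and 3.28 (edgeR adjusted p = 0.00266 and 3.3e-05), Spry4, a Sprouty inhibitor, by 2.04 and 2.74 (edgeR adjusted p = 0.00109 and 0.000314) and Fosl1, an AP-1 subunit, by 1.88 and 2.48 (edgeR adjusted p = 0.00488 and 0.00018). Egr1 of this list was called in neither series, and Spry1 was called with the block in the S6K1 series but not without it.

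Several negative regulators of Ras also rose. Of 11 other GAP and Spred genes (Spred proteins bring neurofibromin to the membrane), 4 rose and 1 fell of 10 tested in the S6K1 series, and 5 rose of 9 tested in the S6K1/S6K2 series. Over all tested genes, 7.15% and 13.5% were called higher and 6.09% and 12.7% lower. Rasa2, another GAP related to Rasa1, was at 27.5 ± 4.10 CPM in WT EV and 58.8 ± 8.42 CPM in WT RAS in the S6K1 series (1.10 on the log2 scale, SE 0.180, edgeR adjusted p = 0.00405), and it rose by 0.94 in the other. Spred1 rose on that scale by 1.01 and 0.88, Spred2 by 0.67 and 1.01, and Spred3 by 1.15 and 1.97. Rasa3 fell in the S6K1 series (−0.78, SE 0.171, edgeR adjusted p = 0.0165) and had a log2 fold change of −0.070 in the S6K1/S6K2 series, and Rasa4 rose in the latter (0.95, edgeR adjusted p = 0.0203). The median of the tested genes of the list was 0.32 and 0.88.

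Of 6 other exchange factors, Rasgrf1, a calcium-responsive factor best known in neurons, was listed at 0 in all 3 EV libraries of the S6K1 series and at 2.76 ± 1.13 CPM with RAS. Against a floor of 3 counts per library its log2 fold change was at least 3.56 (edgeR adjusted p = 0.0017). Within the S6K1/S6K2 series it rose from 0.204 ± 0.280 to 3.20 ± 1.20 CPM (edgeR adjusted p = 0.00535). Sos1 and Sos2, the exchange factors that couple receptors to Ras, rose in the S6K1/S6K2 series by 0.48 and 0.51 on the log2 scale (edgeR adjusted p = 0.0376 and 0.0222) and had −0.19 and 0.28 in the S6K1 series (edgeR adjusted p = 0.673 and 0.494).

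The list of 24 other Ras family GTPases had 3 genes called of 18 tested in each series, where 13.2% and 26.3% of all genes were called. Rasl11b fell in both (−0.89 and −1.31), Rasl11a (−1.45) and Diras2 (−2.13) fell in the S6K1 series, and in the S6K1/S6K2 series Rit1 fell (−0.44) and Rala, which promotes exocytosis, rose (0.39). The medians were 0.052 and −0.074, near those of all genes.

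**Figure D4:**
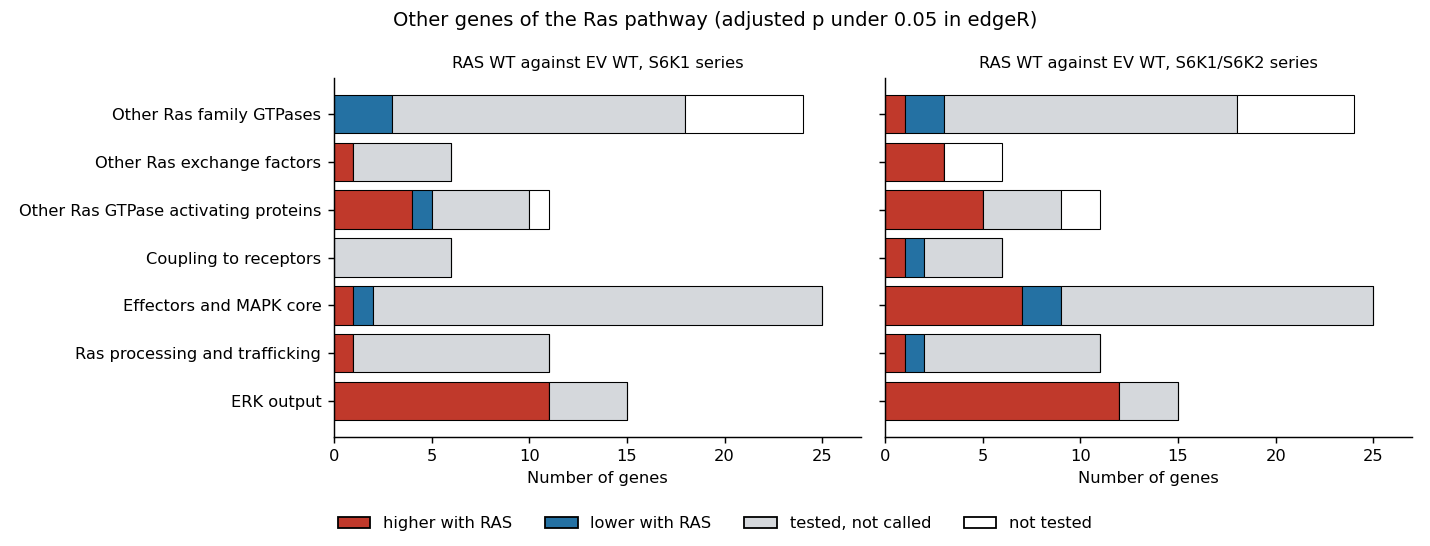
Number of genes of 7 pathway lists that were higher, lower, tested without a call or not tested in WT RAS against WT EV, in each series (horizontal axes). Of 15 ERK output genes, 11 and 12 were higher, and of the GAP and Spred list 4 and 5 were higher. The shares of all tested genes that were higher were 7.15% and 13.5%.

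The remaining lists cover receptor adaptors, effectors and MAPK genes, and the processing of Ras. Over all tested genes, 13.2% were called in the S6K1 series and 26.3% in the S6K1/S6K2 series (7.15% and 13.5% higher). Of 6 receptor adaptors 0 were called in the S6K1 series, and in the S6K1/S6K2 series Grb2 rose (0.37) and Gab1 fell (−0.77). Of 25 effector and MAPK genes, 1 rose in the S6K1 series and 7 rose in the S6K1/S6K2 series. Pik3cb, a PI3 kinase catalytic subunit, rose in both, by 0.80 and 1.96 on the log2 scale (edgeR adjusted p = 0.0406 and 0.000374). In the S6K1/S6K2 series Rin1, a Ras-binding exchange factor for Rab5, rose by 1.34, Afdn by 0.85, Map2k1 (MEK1) by 0.65, Rgl1 by 0.60, Mapk3 (ERK1) by 0.42 and Shoc2 by 0.41, and Plce1 fell by 1.06. Of 11 genes for the processing and trafficking of Ras, Icmt, the methyltransferase that completes the lipid-modified tail of Ras, rose from 136.0 ± 11.4 to 316.6 ± 29.98 CPM and from 84.7 ± 24.1 to 194.2 ± 31.7 CPM (log2 fold changes 1.22 and 1.20, edgeR adjusted p = 0.00121 and 0.00568). Fnta, the shared subunit of the farnesyl and geranylgeranyl transferases, fell by 0.49 in the S6K1/S6K2 series (edgeR adjusted p = 0.0114).

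With loss of S6K1, or of both kinases, no gene of these lists was called in edgeR, where 4 of 91 and 1 of 87 had an unadjusted p under 0.05. DESeq2 also called 0 in both. With the block 3 were called in KO, all lower, which were Rasgrp4, Rasal3 and Pik3cd, each best known from blood cells. This is 3.3% of the list genes, below the 4.15% of all genes that the block called. The macrophage marker sums of these libraries are given above, and their part was not tested. For the RAS effect, 0 of 91 list genes differed between the series in edgeR, where 14 had an unadjusted p under 0.05, and DESeq2 called 2, Rin1 and Dusp4. Whether the series share a batch is not given in the sources used here, so a batch and the series cannot be told apart there. For the members themselves, 0 of 9 differed between the series in edgeR or DESeq2 in either the RAS effect or the loss effect, with 1 (Rras2) and 0 at an unadjusted p under 0.05 in edgeR, against 12.6% and 1.23% of all genes. Over all genes edgeR called 0% and 0.0069%, and DESeq2 0.88% and 0.00333%.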

How the data were processed

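The authors deposited 1 table of raw counts per gene for 18 libraries (stranded poly(A) RNA, single-end reads of 50 bases). Per the methods of the study reads were mapped to mm9 with TopHat and counted with HTSeq, whereas the submitters' processing notes name mm10, STAR 2.7.1a and DESeq2 1.28.1, so the build behind the counts is not settled. The strand setting of the counting is not given in the sources used here. Positions are those of RefSeq on GRCm38.p6 and describe the genes, not the counting. Exon lengths are those of GENCODE vM1. Libraries of a group are separate cultures of 3 embryo lines by the study's description. Replicates differed by a chi-square of at least 7.98 per degree of freedom, beyond counting error, so none was a second count of the same library. That value cannot tell separate lines from separate cultures of the same line.

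Tests used edgeR 4.0.16 in R 4.3.3 (quasi-likelihood, two-sided, group as the only term, TMM, filterByExpr with a minimum count of 10), each series alone over 9 libraries, and over 18 for differences between series. DESeq2 1.42.0 was an alternative. CPM was computed within each series. The scripts were tested on simulated data. Same-numbered libraries correlated in their deviations from group means at 0.444 to 0.684 (S6K1 series, RAS against EV) and 0.393 to 0.692 (KO against WT), and at 0.293 to 0.366 in the other series (RAS against EV). They were taken as pairs of 1 WT line or of littermates. For DKO against WT the values were 0.279, 0.454 and −0.0351 for replicates 1, 2 and 3. DKO and WT embryos of that series had different mothers, so these numbers were not taken as pairs of littermates. P-values measure the spread between these cultures. Counting floors (3 counts) cover counting error only. Members and lists were chosen with earlier results of these data known. The text names all members, called genes of each list with a few others (some items are not reported here), and the 3 genes most like each member but Rasgrp1.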

Additional observations from a re-analysis of the deposited data

How the results depend on the processing

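Counts of members called answer the comparisons. With the replicate block the count was 7 in place of 4 for WT RAS against WT EV of the S6K1 series, and 1 in place of 0 for KO against WT, where DESeq2 also gave 1. All other alternatives (DESeq2 size factors, 10 or more counts required of all libraries, no filter, all 18 or only 6 libraries in the fit, single libraries left out) left each count within 1.5 times of its main value, at 3 to 4 and 5 to 6 for the RAS comparisons with a library left out, and at 0 for DKO and for both differences between series. Over all genes the block called 5085 in place of 1859 (S6K1 series, RAS), 583 in place of 1 (KO), 8 in place of 3 (DKO) and 58 in place of 0 (difference in the RAS effect), and 49 in place of 23 list genes in the S6K1 series with RAS. For KO, DKO and that difference, DESeq2 called 97, 10 and 142 and the fit with no filter 108, 11 and 204, and with 18 libraries in the fit 4 and 7 were called in KO and DKO. Without 1 library the counts ran from 1043 to 1818 and from 2050 to 4199 (RAS), from 0 to 22 (KO), from 1 to 2 (DKO) and from 0 to 290 (difference in the RAS effect). For members, the block called 0 in DKO and in both differences. The block also placed the DKO libraries by number, although DKO and WT embryos were not littermates. The counts of the block for DKO and for the differences are therefore no check by pairing of littermates. Directions of uncalled members turned in a few fits. Nras in DKO was at −0.009 with the block and at −0.202 to 0.109 with a library left out, Rras in DKO at −0.015 to 0.209, Rasa1 in DKO at −0.017 to 0.191 and Nf1 in DKO at −0.284 to 0.091. In KO, Nras was at −0.055 to 0.143, Rras at −0.106 to 0.303 and Mras at −0.092 to 0.007. Rasgrp3, WT RAS against WT EV of the S6K1/S6K2 series, was at −0.135 to 0.727. The causes were not tested. Rasgrp1 could be fitted in the S6K1/S6K2 series with no filter, with 18 libraries and in DESeq2, and was called in none of these. A gene of a few counts per library, as Rasgrp1, is limited by depth.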
